A study of Mus musculus with 4 samples.

Results

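The natriuretic peptide system and markers of stress in heart muscle, 10 genes of the 55401 in the count files, were described in mice with sepsis from cecal ligation puncture (CLP), in which gut bacteria leak into the abdomen. They were chosen by name: the hormone genes Nppa and Nppb, the receptor genes Npr1, Npr2 and Npr3, the protease gene Corin, and the stress markers Acta1, Ankrd1, Xirp2 and Gdf15. RNA from 4 libraries of C57BL/6 mice was compared, 1 each from the heart and the kidney of a CLP group and of a CLP + MLT group, so that CLP was shared by all of them and melatonin (MLT) was the difference. For the kidneys, male mice aged 8 weeks drank water with melatonin at 25 μg/ml, dissolved with ethanol, for 14 days before CLP, and tissue was taken 24 h after it. Whether the water of the CLP group held ethanol is not stated. For the hearts no dose, age or time is given in the sources used here. The sources do not say if the RNA of a library was that of 1 mouse or a pool, the melatonin libraries carry a number in their names that is not explained, and sham libraries were not analysed here. With 1 library per group there was no replicate, so no difference could be set against the spread between mice, and the intervals below cover counting error only.

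Atrial natriuretic peptide, from Nppa, and brain natriuretic peptide, from Nppb, are hormones that heart muscle releases when its wall is stretched, and they lower blood pressure and make the kidney excrete salt. Both are made as precursors, and corin cuts the Nppa precursor to the active hormone. Both bind the receptor encoded by Npr1, which makes cyclic GMP, while Npr3 encodes a receptor that takes the peptides up and clears them, and Npr2 encodes the receptor for the related C-type peptide. In the healthy adult heart Nppa is made mainly in the atria, and under stress the ventricles turn on Nppa and Nppb together with Acta1, the actin of skeletal muscle.

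In the heart, the hormone genes went in opposite directions. Nppa was 2.25-fold lower and Nppb was 2.78-fold higher in the CLP + MLT library than in the CLP library. Acta1 was 2.73-fold lower, and the 3 receptor genes, Corin, Ankrd1 and Xirp2 differed by less than 1.5-fold. Gdf15 had fewer than 10 counts in either heart library. In the kidney the 2 genes past 1.5-fold were others, Ankrd1 and Gdf15, and both were lower with MLT.

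Reads counted on genes numbered from 15883057 to 22927905 per library. The ratio of CLP + MLT over CLP was taken after scaling with the TMM method within a tissue, for genes whose counts averaged 10 or more in that tissue, and a gene was called past the threshold at a fold of at least 1.5. Of the 10 genes, 9 passed the minimum in heart and 7 in kidney. The 9 cardiomyocyte markers checked had a summed level of 32660 and 24450 CPM (counts scaled to library depth) in the CLP and CLP + MLT heart libraries, and in kidney they stood at 0.0367% and 0.0587% of the level in heart. Of the 5 atrial markers, Sln and Bmp10 were at 0 in both heart libraries, Myl7 and Mybphl had 1 count each in CLP and 0 in CLP + MLT, and Myl4 was counted 70 and 38 times, with a log2 ratio of −0.86 (−1.48 to −0.28). The summed level of these 5 was 4.42 and 2.35 CPM, lower in CLP + MLT as Nppa was, and the part of atrial muscle in the Nppa values was not tested. Of the 3 ventricular markers, the light chain gene Myl2 had 78757 and 31216 counts (log2 ratio −1.33) and Hey2 had 167 and 108 (−0.62). Irx4 went the other way, with 617 and 782 counts (0.35). The 6 kidney tubule markers were present in heart, with a sum of 109.2 CPM in CLP and 212.7 CPM in CLP + MLT, or 1.82% and 3.15% of their level in kidney, and none of them was at 0.

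The starts of Nppa and Nppb lie on the same strand of mouse chromosome 4, with 13516 bases between the end of Nppb and the start of Nppa. Because these neighbours differed in opposite directions, and Acta1 was lower like Nppa, the sequence before the start of each is shown, from RefSeq on GRCm38.p6. Capitals mark matches on either strand to the TATA box core TATAAA, to the core bound by GATA factors, GATAA, to AAGTG (in sites of Nkx and Tbx factors), to the M-CAT element CATTCC and to the CArG box, which serum response factor binds. No match overlapped another. The Nppa window is chr4:148000472-148000721 (plus strand), the Nppb window of 30 bases is chr4:147985794-147985823 (plus strand), and the Acta1 window is chr8:123894776-123895025 (minus strand).
Nppa: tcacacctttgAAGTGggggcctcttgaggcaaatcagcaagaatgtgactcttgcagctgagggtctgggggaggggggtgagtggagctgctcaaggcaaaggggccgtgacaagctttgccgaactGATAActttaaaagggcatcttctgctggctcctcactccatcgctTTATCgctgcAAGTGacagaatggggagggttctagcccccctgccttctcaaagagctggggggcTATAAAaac
Nppb: aGGAATGcagctGATAAatcagaGATAAcc
Acta1: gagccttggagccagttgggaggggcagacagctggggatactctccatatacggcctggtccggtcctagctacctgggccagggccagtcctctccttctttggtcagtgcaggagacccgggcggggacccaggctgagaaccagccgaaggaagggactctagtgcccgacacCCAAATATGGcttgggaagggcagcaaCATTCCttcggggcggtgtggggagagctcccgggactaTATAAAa

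In the 250 bases before the RefSeq start, Nppa and Nppb each held 2 matches to GATAA. Only Nppa of this pair held AAGTG, with 2 matches, and only Nppb held CATTCC, with 1. Acta1 held the CArG box and CATTCC once each and no GATAA. Over all 32851 RefSeq windows of this length, GATAA was present in 22.6%, AAGTG in 40.7%, CATTCC in 12.6%, TATAAA in 12.4% and the CArG box in 1.47%. Among the 10 genes, GATAA was matched in 3 (Nppa, Nppb and Ankrd1), CATTCC in 4 (Nppb, Acta1, Ankrd1 and Gdf15), TATAAA in 3 (Nppa, Nppb and Acta1), AAGTG in 2 (Nppa and Xirp2) and the CArG box in Acta1 alone. These matches describe the letters only. GENCODE M21 places the start of Nppb at 147985788, upstream of the RefSeq start at 147985900, so the Nppb window is transcribed in that annotation. The same holds for Ankrd1, with a GENCODE start at 36120099 and a RefSeq start at 36119844 on the minus strand. The Gdf15 match lay before its RefSeq start at 70632095 and not before that at 70632456, which GENCODE M21 uses.

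**Figure D1:**
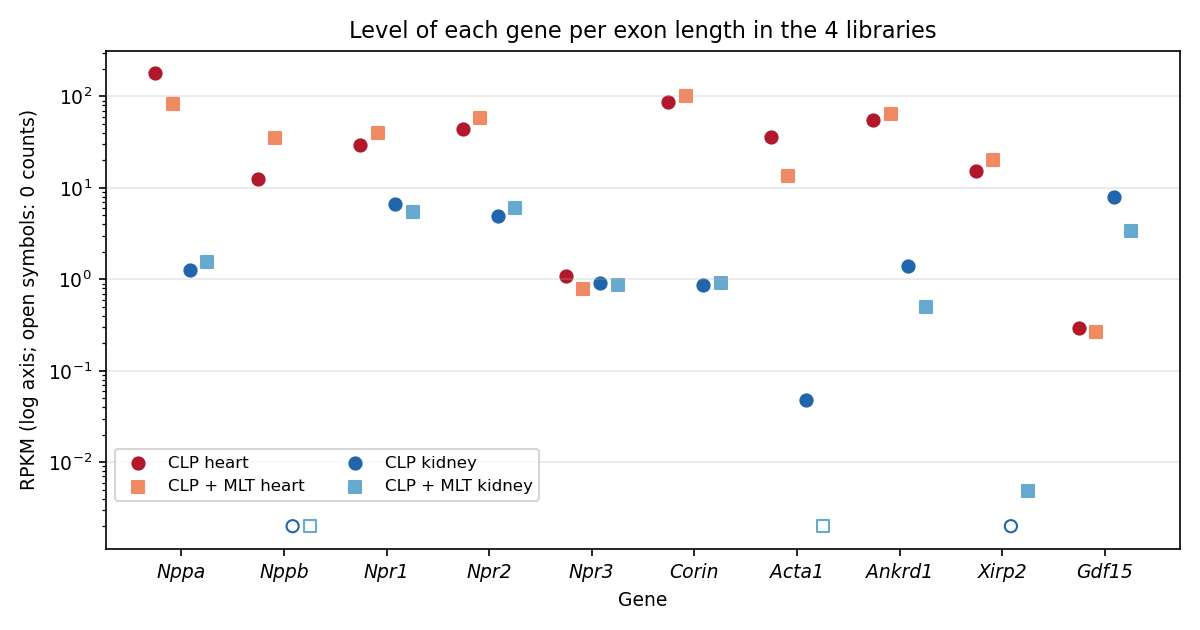
Level of each of the 10 genes in the 4 libraries, in RPKM, which corrects counts for exon length and depth (log axis), with open symbols at the bottom for 0 counts. Nppa and Corin lead in both heart libraries, Npr3 lies near 1 RPKM in heart and kidney alike, and Gdf15 is higher in both kidney libraries than in either heart library.

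Levels per exon length set the genes in order within the hearts. In the CLP heart Nppa was first, with 179 RPKM, followed by Corin (87.0), Ankrd1 (55.3), Npr2 (43.9), Acta1 (35.6), Npr1 (29.1), Xirp2 (15.1), Nppb (12.4), Npr3 (1.09) and Gdf15 (0.292). In the CLP + MLT heart Corin was first with 101 RPKM, and Nppa followed with 82.0 and Ankrd1 with 63.6. Nppb stood above Xirp2 and Acta1 in this library, with 35.6 RPKM against 20.1 and 13.5. Without replicates the spread behind these positions is not known. Among all genes with a count, Nppa was number 194 by RPKM in the CLP heart and 328 in the CLP + MLT heart, while Nppb was number 3184 and 945.

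Nppa (ENSMUSG00000041616.9, chromosome 4 from 148000722 to 148002079) was counted 2287 times in the CLP heart and 1009 times in the CLP + MLT heart. Its log2 ratio was −1.17 (95% counting interval −1.28 to −1.06), below 96% of the genes tested in heart. Nppb (ENSMUSG00000029019.8, chromosome 4 from 147985788 to 147987205) had 143 and 395 counts, and its log2 ratio was 1.47 (1.20 to 1.76), above 97.9% of the genes tested. Neither interval reached the 1.5-fold line. The ratio of Nppa to Nppb counts within a library, which needs no scaling, was 16.0 in the CLP heart and 2.55 in the CLP + MLT heart, a 6.26-fold difference with a log2 interval of −2.95 to −2.34. This ratio was chosen after the values were seen.

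Other protein-coding genes within 100 kb of the pair were closer to equal levels. Mfn2, Plod1, 2510039O18Rik, Clcn6 and Agtrap had log2 ratios in heart between −0.49 and 0.28, all within 1.5-fold, and Draxin had at most 3 counts. Nppa is overlapped on the opposite strand by the antisense gene Gm13054, which shares 532 of the 865 exon bases of Nppa. Gm13054 had 1735 counts in the CLP heart and 737 in the CLP + MLT heart, 75.9% and 73.0% of the counts of Nppa. The library kit described in the labels does not mark strand, so reads of these 2 genes cannot be told apart. Summed, they gave 4022 and 1746 counts and a log2 ratio of −1.19 (−1.28 to −1.11). Gm13054 stood at a similar share of Nppa in both hearts, so the sum could hardly differ from Nppa alone and is no separate check. Nppb is overlapped by no exon of another gene.

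**Figure D2:**
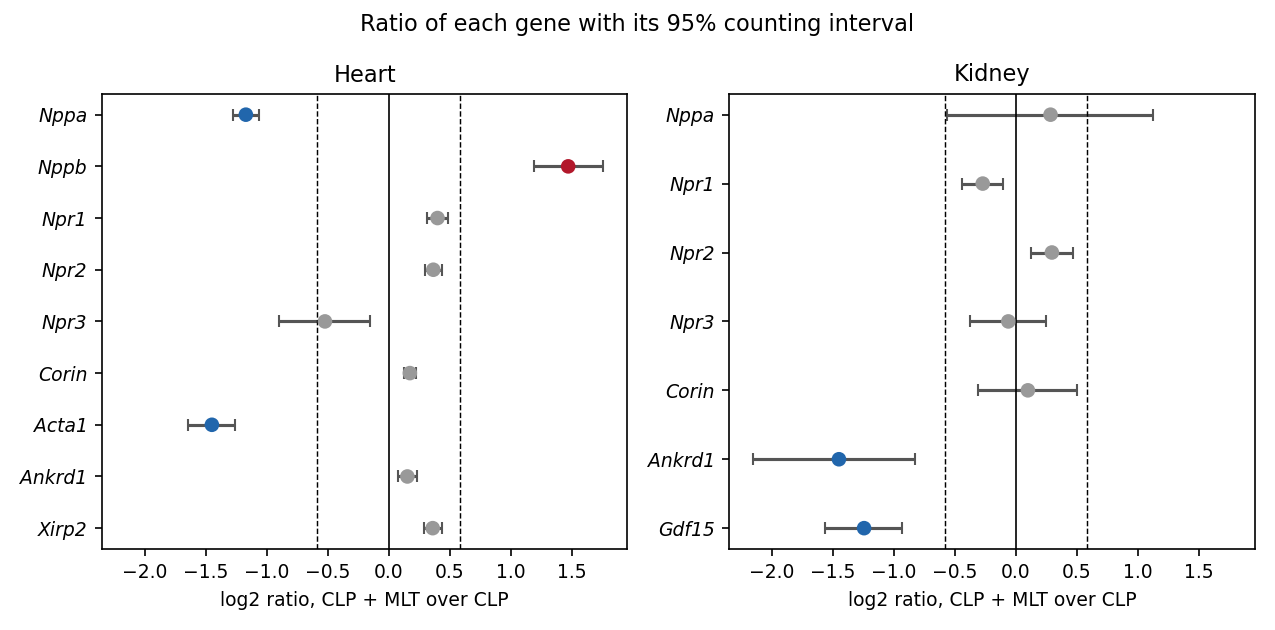
Log2 ratio of CLP + MLT over CLP for the genes that passed the minimum in heart (left, 9 genes) and kidney (right, 7 genes), with 95% counting intervals and dashed lines at 1.5-fold. In heart Nppa and Acta1 lie left of the lines and Nppb right of them, and in kidney Ankrd1 and Gdf15 lie left.

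The receptors and the protease lay closer to equal levels. Npr1, the receptor of both hormones, had 2061 and 2703 counts in the CLP and CLP + MLT hearts, for a log2 ratio of 0.40 (0.32 to 0.48). Npr2 had 3028 and 3878 counts and a log2 ratio of 0.37 (0.30 to 0.44). Npr3, the clearance receptor, had only 152 and 105 counts and leaned the other way, with −0.52 (−0.90 to −0.16). Counts of Npr1 per count of Npr3 went from 13.6 to 25.7 and those of Npr2 from 19.9 to 36.9, with log2 intervals of 0.55 to 1.31 and 0.52 to 1.27, ratios that were also chosen after the values were seen. Corin had 6950 and 7790 counts, with a log2 ratio of 0.17 (0.13 to 0.22). Each of these intervals lay on 1 side of equal levels, but no point value reached 1.5-fold, and that of Npr3 spanned equal levels when the hearts were scaled to cardiomyocyte markers. Npr1 is also overlapped by an antisense gene, Gm16048, over 11.7% of its exon bases, and that gene had 793 and 1081 counts, with a log2 ratio of 0.46 (0.32 to 0.59).

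Among the stress markers of the muscle cell, Acta1 stood apart. Acta1 (ENSMUSG00000031972.5, chromosome 8 from 123891769 to 123894751) was counted 809 times in the CLP heart and 294 times in the CLP + MLT heart, a log2 ratio of −1.45 (−1.65 to −1.26). Cardiac actin, from Actc1, had 3989 and 5485 counts and a log2 ratio of 0.47 (0.41 to 0.53), so Acta1 counts per Actc1 count went from 0.203 to 0.0536. Of the 50-base stretches of the Acta1 transcripts, 2.02% were found in another gene. Ankrd1, which encodes a titin-binding repressor of transcription that is induced by load, had 2361 and 2609 counts (log2 ratio 0.15, 0.07 to 0.23). Xirp2, which encodes an actin-binding protein of the intercalated disc, had 2683 and 3424 counts (log2 ratio 0.36, 0.29 to 0.44). Gdf15, a cytokine made by stressed cells, had 8 and 7 counts in heart, too few for a ratio to be read.

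Of the 9 genes tested in heart, 1 was higher and 2 were lower past 1.5-fold, and for all 3 the counting interval lay wholly past it. Over all 15871 genes tested in heart, 10.9% were higher and 12.6% lower, 23.5% in either direction, and 7.35% had an interval wholly past the line in either direction. By direction, 2.89% had an interval wholly past the line on the higher side and 4.45% on the lower. All 9 averaged 100 counts or more, and among the 10333 genes at that depth 4.17% were higher and 8.49% lower past 1.5-fold, 12.7% in all, with 6.22% by the interval. With 9 genes, 3 calls are too few to set the list apart from these shares. The median log2 ratio of the 9 was 0.17, against 0.0023 over all genes tested.

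**Figure D3:**
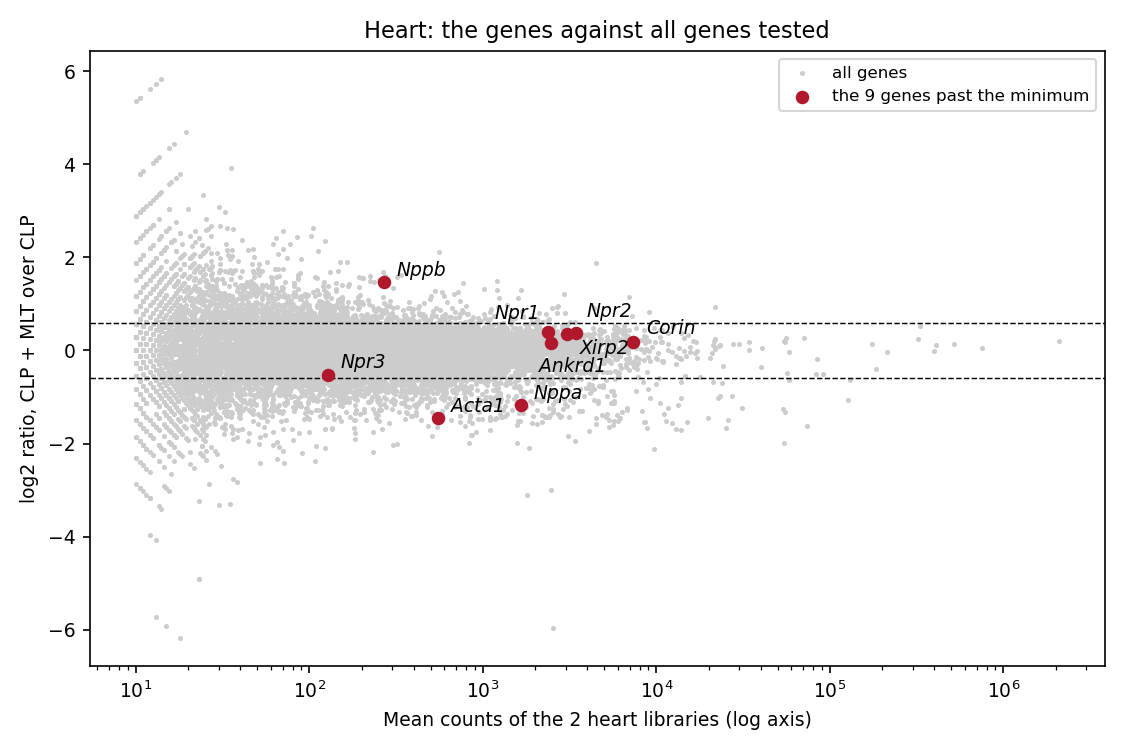
Log2 ratio of CLP + MLT over CLP in heart against the mean counts of the 2 heart libraries (log axis), with all 15871 genes tested in grey, the 9 genes named in red, and dashed lines at 1.5-fold. Nppb lies toward the upper and Acta1 and Nppa toward the lower edge of the cloud at their depth, and the other 6 lie between the dashed lines.

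Exon length moved with the ratio in heart. Among genes averaging 100 counts or more, the median log2 ratio was −0.29 for the 387 genes with exons under 1000 bases in all, −0.21 for those from 1000 to under 2000 bases, and 0.044 for those of 5000 bases or more. Nppa (865 bases) and Acta1 (1536 bases) are short and Nppb (781 bases) is shorter still. With the length trend removed, the log2 ratio was −1.03 for Nppa, −1.32 for Acta1 and 1.61 for Nppb, so the 3 kept their directions and stayed past 1.5-fold. The summed level of the cardiomyocyte markers was lower in the CLP + MLT heart. Of the 9 markers, 2 (22.2%), Tnni3 and Myl3, were lower past 1.5-fold and 0 higher, against 12.6% and 10.9% of all genes. Both had intervals wholly past the line, as 4.45% of all genes did on the lower side. The other markers did not all lean that way: 4 of the 9, Actc1 (0.47), Ttn (0.20), Mybpc3 (0.12) and Pln (0.10), were on the higher side, and the median of the 9 was −0.19. In bulk tissue, fewer cells of a type and less RNA per cell cannot be told apart. Scaled to these markers, an alternative added after the data were seen which shifted the median of all genes to 0.42, Nppa was at −0.75, Acta1 at −1.03 and Nppb at 1.89. Npr1 (0.82), Npr2 (0.78), Xirp2 (0.78) and Corin (0.59) then also passed 1.5-fold on the higher side, and Npr3 was at −0.11 (−0.48 to 0.26).

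Markers of other cells were set beside these values. The skeletal muscle myosin genes Myh1, Myh2 and Myh4 were at 0 in both hearts, and the 10 skeletal markers summed to 23.4 and 19.0 CPM, against 49.6 and 18.2 CPM for Acta1 alone. Among them Tnni2 went from 64 to 6 counts, Tnnt3 from 28 to 13 and Myl1 from 205 to 125, while Mylpf went from 49 to 95 and Pvalb from 0 to 20, and the part of skeletal muscle in the lower Acta1 was not tested. The 6 endothelial markers summed to 946.7 and 1122 CPM and the 6 fibroblast markers to 462 and 364 CPM. Of the endothelial markers 1 (16.7%) was higher past 1.5-fold (Kdr, 0.91) and 0 lower. Of the fibroblast markers 1 (16.7%) was lower (Col1a1, −0.92) and 0 higher. All genes tested in heart gave 10.9% higher and 12.6% lower. Both named genes had intervals wholly past the line, against 2.89% of all genes on the higher and 4.45% on the lower side. The part of these cell types in the receptor values was not tested.

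**Figure D4:**
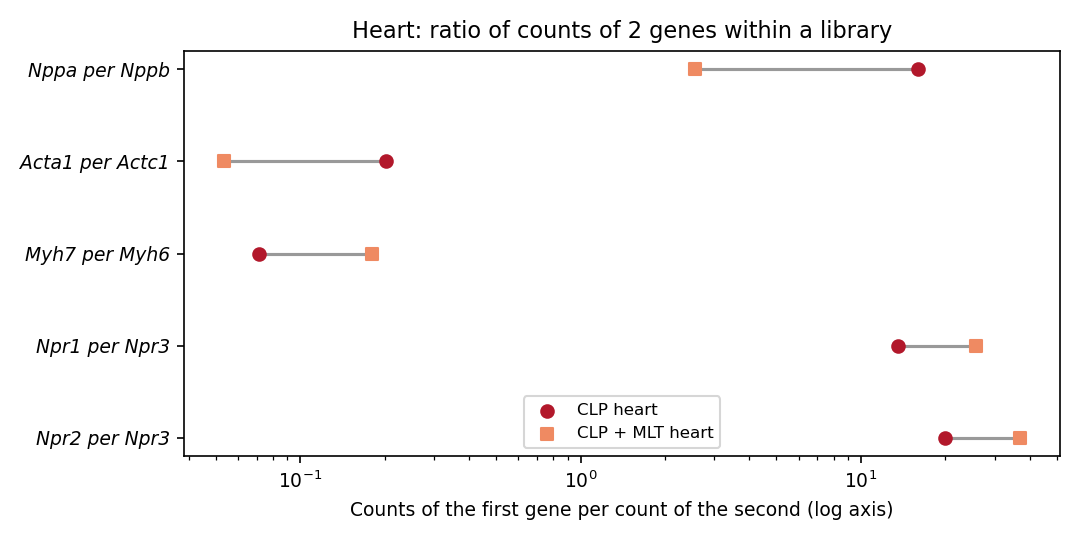
Counts of the first gene per count of the second within each heart library (log axis), for pairs chosen after the values were seen. From CLP to CLP + MLT the ratio of Nppa to Nppb went from 16.0 to 2.55 and that of Acta1 to Actc1 from 0.203 to 0.0536, while Myh7 per Myh6 and both cyclase receptors per Npr3 went up.

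In the kidney, Ankrd1 and Gdf15 were the genes past 1.5-fold. Ankrd1 (ENSMUSG00000024803.9, chromosome 19 from 36111961 to 36120099) was counted 110 times in the CLP kidney and 25 times in the CLP + MLT kidney, 2.73-fold lower, with a log2 ratio of −1.45 (−2.15 to −0.83). Gdf15 (ENSMUSG00000038508.7, chromosome 8 from 70629393 to 70632456) had 405 and 107 counts, 2.37-fold lower, with a log2 ratio of −1.25 (−1.57 to −0.94). Both intervals lay wholly past 1.5-fold. Of the 7 genes tested in kidney, 2 were thus lower and 0 higher, where 11.6% of the 16932 genes tested were lower and 11.0% higher, 22.6% in either direction. Intervals lay wholly past the line for 3.4% on the lower and 3.57% on the higher side, 6.97% in all.

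The hormone receptors were present in kidney, where the peptides act. Npr1 was counted 872 and 453 times in the CLP and CLP + MLT kidneys (log2 ratio −0.27, −0.44 to −0.11), and Npr2 had 639 and 492 (0.29, 0.12 to 0.47). With scaling by library size alone, Npr2 was at 0.10 (−0.07 to 0.27). Npr3 had 233 and 140 counts (−0.06, −0.38 to 0.25) and Corin 128 and 86 (0.10, −0.31 to 0.50), so that no difference was detectable at this depth for these 2. Nppa had 30 and 23 counts, with a log2 ratio of 0.28 and an interval from −0.56 to 1.12. Nppb was at 0 in both kidney libraries, Acta1 had 2 counts and 0, and Xirp2 had 0 counts and 1, and no fold was taken for these 3 genes.

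Between the tissues, within CLP, Nppa was 139-fold and Corin 100-fold higher in heart than in kidney, after TMM scaling over the 4 libraries. Ankrd1 was 39.6-fold higher in the CLP heart and 124-fold higher in the CLP + MLT heart. Nppb, at 0 in kidney, was at least 88.5-fold higher in the CLP heart and at least 160-fold higher in the CLP + MLT heart, with a floor of 3 counts per library and the heart count taken as measured. The counting intervals of these log2 ratios, which also cover the error of the heart count, began at 6.15 and 7.02. Xirp2 was at least 1660-fold higher in the CLP heart by the same floor (interval from a log2 ratio of 10.4), and Acta1 at least 119-fold higher in the CLP + MLT heart (from 6.59). With 2 counts of Acta1 in the CLP kidney, its log2 ratio of heart over kidney in CLP was 9.15 (7.69 to 12.6). Npr2 was 8.79-fold and 9.56-fold higher in heart, and Npr1 4.38-fold and 7.24-fold. Npr3 had log2 ratios of heart over kidney of 0.28 (−0.03 to 0.58) in CLP and −0.13 (−0.51 to 0.24) in CLP + MLT. In CLP its value depended on the scaling, with 0.33 (0.02 to 0.63) by DESeq2 size factors and −0.15 (−0.46 to 0.15) by library size. Gdf15 went the other way, 26.2-fold higher in the CLP kidney than in the CLP heart and 11.9-fold higher in the CLP + MLT kidney. Its level in heart was 3.67% and 7.94% of that in kidney, beside 1.82% and 3.15% for the kidney tubule markers, and the part of kidney RNA in the few Gdf15 counts of heart was not tested.

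Genes around the hormone pathway were counted in 7 lists, 77 genes in all, of which 71 were tested in heart. There, 9 (12.7%) were higher and 13 (18.3%) lower past 1.5-fold, where the shares over all genes were 10.9% and 12.6%, and the median log2 ratio was 0.004. By the interval, 3 (4.23%) were higher and 9 (12.7%) lower, against 2.89% and 4.45% over all genes, and 5 of those 9 were Z-disc genes. Of the genes for peptide processing and clearance 4 were tested: Furin and Pcsk6, which encode proprotein convertases, Ide, which encodes insulin-degrading enzyme, and Mme. Mme, which encodes the peptide-degrading enzyme neprilysin, was the 1 past 1.5-fold, with 50 and 103 counts (log2 ratio 1.05, 0.55 to 1.57). Mme is also abundant in kidney, with 1693 and 1496 counts, and the kidney tubule markers in heart went up beside it; their part was not tested. Nppc, the C-type peptide gene, had 0 counts in both hearts, as had Ostn. Of the cyclic GMP genes 9 were tested, and 2 (22.2%) were higher past 1.5-fold and 0 lower, against 10.9% and 12.6% of all genes. Neither of the 2 had an interval wholly past the line. In kidney 61 of the 77 were tested, and 7 (11.5%) were higher and 15 (24.6%) lower, against 11.0% and 11.6% over all genes.

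The transcription factors of heart muscle had a median absolute log2 ratio of 0.43 in heart, against 0.28 over all genes tested. Of 16 tested, 1 (6.25%) was higher past 1.5-fold (Rest, a repressor, 0.69) and 2 (12.5%) were lower (Nkx2-5, −0.80, and Hand2, −0.75). Over all genes tested in heart the shares were 10.9% and 12.6%. No interval of the list lay wholly past 1.5-fold, where 2.89% of all genes did on the higher and 4.45% on the lower side. Gata4, the main GATA factor of heart muscle, had 367 and 405 counts (log2 ratio 0.15), Srf had 237 and 334 (0.50), and Tead1, which binds M-CAT elements, had 1534 and 1188 (−0.36). None of the 16 had a ratio as far from 0 as Nppa, Nppb or Acta1.

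Relatives and partners of Ankrd1 and Xirp2 at the Z-disc gave 1 higher (7.14%) and 5 lower (35.7%) of 14 genes tested past 1.5-fold. The shares of all genes were 10.9% and 12.6%. All 5 lower ones had intervals wholly past 1.5-fold, against 4.45% of all genes. The higher one, Ankrd23 (log2 ratio 0.72, 0.09 to 1.39), did not. Ankrd2, a close relative of Ankrd1, had 30 and 6 counts (log2 ratio −2.22, −3.87 to −1.02). Des, which encodes desmin, had 15875 and 6144 counts (−1.36), and the small heat shock protein genes Hspb7 and Cryab had −1.23 and −1.08. Myoz2, a calcineurin-binding Z-disc gene, had −0.85. Xirp1, the relative of Xirp2, had 1516 and 1664 counts and a log2 ratio of 0.14, close to that of Ankrd1. In kidney Cryab was higher (1.07) and Rcan1, a calcineurin target, lower (−1.61), each with an interval wholly past 1.5-fold.

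**Figure D5:**
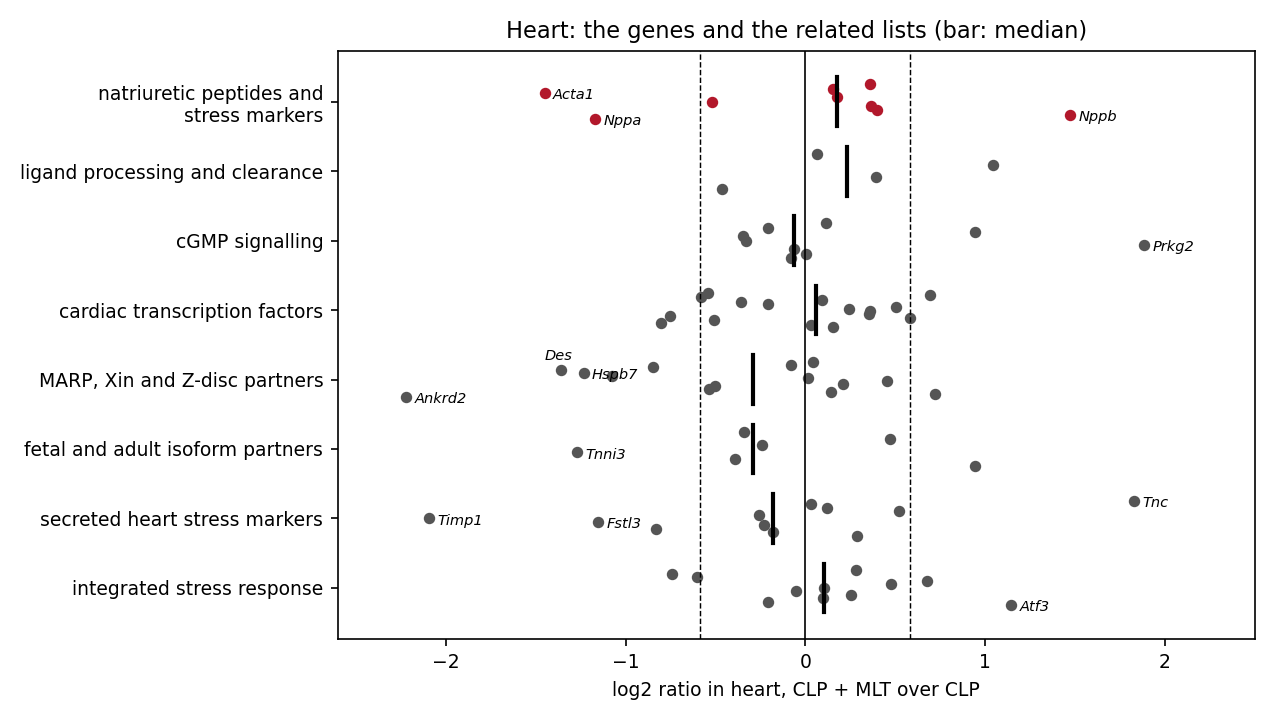
Log2 ratio of CLP + MLT over CLP in heart for the 9 genes (red) and for the tested genes of the 7 related lists (dark grey), with a bar at each median and dashed lines at 1.5-fold. The medians lie between −0.29 and 0.23, and the Z-disc list holds 5 genes left of the lines.

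Among the isoform partners of the stressed heart, Myh7, the slow myosin that mouse ventricle expresses before birth and under load, had 14893 and 28424 counts, with a log2 ratio of 0.94 (0.91 to 0.97). Myh6, the adult form, had 208975 and 158174 counts (−0.39), so Myh7 per Myh6 went from 0.0713 to 0.180. Tnni3, the adult troponin I gene, was lower (−1.27), and its fetal partner Tnni1 had 4 counts and 1. Acta2, smooth muscle actin, was at −0.24. In kidney Myh7 had 5 and 18 counts (2.38, 1.04 to 4.30). Nppb and Myh7 were thus higher in the CLP + MLT heart while Nppa and Acta1 were lower.

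Of the 11 secreted stress markers tested in heart, 1 (9.09%) was higher and 3 (27.3%) were lower past 1.5-fold, all with intervals wholly past it, against 2.89% and 4.45% of all genes by the interval. Timp1, an inhibitor of matrix proteases, had 199 and 46 counts (log2 ratio −2.09), Fstl3 had 117 and 52 (−1.15) and Spp1, which encodes osteopontin, 1531 and 855 (−0.83). Tnc, a matrix protein of injured muscle, had 7 and 26 counts (1.83, 0.66 to 3.35). In kidney Spp1 had 251014 and 32496 counts (−2.28) and Ccn1 1058 and 224 (−1.57). The integrated stress response is a pathway that induces Gdf15. Of its 11 genes tested in heart, 2 (18.2%) were higher and 2 (18.2%) lower past 1.5-fold, against 10.9% and 12.6% of all genes. Only Atf3, with 78 and 172 counts (1.15), had an interval wholly past 1.5-fold. By the interval 9.09% were thus higher and 0% lower, against 2.89% and 4.45% of all genes. In kidney 5 of 12 (41.7%) were lower and 1 (8.33%) was higher past 1.5-fold, against 11.6% and 11.0% of all genes, with Psat1 at −2.38 and Fgf21 at −4.05, the latter from 36 counts to 1 (−9.84 to −1.93).

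The genes of nearest pattern were found by the distance between log2 CPM profiles over the 4 libraries, each centred on its mean, among genes averaging 100 counts or more over the 4. For Nppa these were Mfap5 (distance 0.375), its antisense gene Gm13054 (0.63) and Scd4 (0.646). Reads of Gm13054 cannot be told apart from those of Nppa where their exons overlap, so its nearness is no separate finding. For Nppb the nearest was Myh7b (0.427), a myosin gene with 1929 and 7080 counts in the hearts. Its log2 ratio was 1.89 (1.81 to 1.96). After it came 1700119I11Rik and Gm17428, with smaller log2 ratios in heart of 0.53 (0.24 to 0.82) and 0.25 (−0.03 to 0.54). For Acta1 the nearest were Cox6a2 (0.694) and Myl3 (0.879), muscle genes with log2 ratios of −1.55 and −1.46 in heart. Abra (0.895) came next, with a log2 ratio in heart of only −0.20. Genes near by this distance over both tissues thus need not share the heart ratio. Genes near Xirp2 by this distance included Mhrt (0.627), which lies antisense at the myosin locus, and Myh7 (0.84). Ankrd1 was nearest to Olfr78 (0.361), Tesmin (0.438) and Ppp1r3b (0.631), genes with 11 or fewer counts in each kidney library.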

How the data were processed

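Raw read counts per gene, without normalization, were deposited by the authors. Reads had been cleaned with trim-galore and mapped to mm10 by HISAT2 2.1.0, and the submitters' processing notes name HTSeq, whose strand option and gene models are not given in the sources used. Each file closes with 5 totals that name no gene, 65.5% to 72.8% of all entries, which were left out. Symbols, positions and exon lengths came from GENCODE M21, on GRCm38, the assembly behind mm10, where 55141 of 55401 identifiers were found. TMM factors were computed with edgeR 4.0.16 in R 4.3.3, and all else in Python 3.11.15. The log2 ratio used a prior count of 0.5, with exact Clopper-Pearson 95% intervals. PCR copies are not independent molecules, so intervals and the floor of 3 counts cover counting error only. The study states edgeR with p at most 0.01. With 1 library per group no dispersion could be estimated, so its 1.5-fold threshold alone was applied. RPKM used TMM over the 4 libraries. On counts simulated with counting error only, 95.8% of intervals held the true ratio in heart (15895 genes) and 95.7% in kidney (16931 genes). The simulation held no spread between mice and no PCR copies, so it checks the computation and not the cover in real tissue.

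The 10 genes, the lists and the alternatives were chosen with earlier results of these data known. Genes outside the 10 were named when the heart interval lay wholly past 1.5-fold, up to 5 per list, with up to 2 per list in kidney, and Myh6, Myh7, Acta2, Actc1, Nppc and the genes of nearest pattern in any case. Others, such as Mme, Gata4, Srf, Rest, Xirp1 and the neighbours of Nppa, were chosen after their values were seen. Some genes that these rules name are not reported here. Of the other marker lists, the smooth muscle, macrophage, podocyte, adipocyte and erythroid markers had median log2 ratios in heart of −0.02, −0.29 and 0.07, no value (none tested) and −0.04. The macrophage median hides shifts in both directions. Of these 6 markers, 1 (16.7%) was higher and 2 (33.3%) were lower with intervals wholly past 1.5-fold, against 2.89% and 4.45% of all genes.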

Additional observations from a re-analysis of the deposited data

Results flagged for a closer look

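Npr1 and Ankrd1 lay on opposite sides of equal levels in the 2 tissues, with counting intervals that did not reach it in either. For Npr1 the log2 ratio was 0.40 in heart and −0.27 in kidney, a difference of 0.67. For Ankrd1 it was 0.15 in heart and −1.45 in kidney, a difference of 1.61. Each tissue has 1 library per group, so neither difference was tested. Of the 4 ratios behind them, that of Ankrd1 in kidney was past 1.5-fold.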

How the results depend on the processing

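Of the ratios between CLP + MLT and CLP, that of Corin in kidney changed sign, from 0.10 to −0.10 by library size, with intervals spanning 0 under both, and no other did under the alternatives run, which were scaling by library size, DESeq2 size factors, the upper quartile or without mitochondrial and haemoglobin genes, a prior count of 5, removal of the length trend, and cardiomyocyte scaling in heart. With edgeR's exact test at an assumed coefficient of variation of 0.2, the 3 calls in heart and 2 in kidney still passed. At an assumed 0.4 none did, 0 in heart (Nppa −1.17, Nppb 1.47, Acta1 −1.45) and 0 in kidney (Ankrd1 −1.45, Gdf15 −1.25). Cardiomyocyte scaling gave 7 calls in heart, adding Npr1 (0.82), Npr2 (0.78), Corin (0.59) and Xirp2 (0.78), and no filter gave 4 in kidney, the added ones at or under 3 counts. Over all genes, 3723 in heart and 3834 in kidney passed 1.5-fold. These became 10461 and 10695 with no filter, 1870 and 2014 at a mean of 50 counts, 1559 and 1529 at 2-fold, 662 and 619 at the assumed 0.2, 63 and 90 at 0.4, and 6042 in heart with cardiomyocyte scaling (5214 higher, 828 lower). Library size alone turned kidney from 1863 higher and 1971 lower to 1149 and 3172, with a median of all genes of −0.19. Npr3 in heart over kidney within CLP went to −0.15 by library size, and Npr3 in heart to −0.11 by cardiomyocyte scaling. No paired analysis was possible because each group has 1 library, and no replicate could be left out.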
